A study of Mus musculus with 7 samples.

Results

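The genes described here carry glucose into the cell, split it to pyruvate and exchange lactate with the neighbouring tissue: the glucose transporter Slc2a1, the hexokinases Hk1 and Hk2, the phosphofructokinase Pfkl, the pyruvate kinase Pkm, the lactate dehydrogenase subunits Ldha and Ldhb, and the monocarboxylate transporters Slc16a1, Slc16a3 and Slc16a8. They were taken by symbol from the deposited table of read counts, in which 10 of the 21861 rows carry these names. The tissue was the RPE, the retinal pigment epithelium, a sheet of pigmented cells that lies behind the photoreceptors, in aged mice treated with adeno-associated virus (AAV). By the labels, 3 libraries (Old-GFP) followed AAV-GFP and 4 (Old-GSTA4) followed AAV-GSTA4, which carries the gene of a glutathione transferase that conjugates lipid aldehydes. Tissue was taken after 12 weeks in both groups, so all 7 libraries come from aged, virus-treated mice. Strain, exact age, sex, promoter and serotype of the vectors, and whether a library holds 1 animal or a pool, are not given in the sources used here, so p-values measure the spread between these libraries, which may be technical. The comparison answers how RNA levels of these genes differed between RPE after AAV-GSTA4 and after the control vector.

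The RPE stands between the choroidal blood supply and the photoreceptors. Glucose crosses it through the transporter encoded by Slc2a1, which lies on both faces of the cell. Photoreceptors ferment much of this glucose to lactate, and the RPE takes lactate up and can burn it in its mitochondria. Lactate dehydrogenase works in both directions: the Ldha subunit is usually linked to lactate formation and the Ldhb subunit to its use. The transporter of Slc16a1 (MCT1) sits on the apical face of the RPE, towards the retina, and that of Slc16a8 (MCT3), a product typical of the RPE, on the basolateral face, towards the choroid. Slc16a3 (MCT4) is typical of glycolytic cells. Basigin, the product of Bsg, carries MCT1, MCT3 and MCT4 to the cell surface.

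Several of these genes are textbook targets of the hypoxia-inducible factors, so the sequence before their start sites was searched for the core of the hypoxia response element, ACGTG or GCGTG, on both strands. All 10 genes matched the RefSeq promoter table (build GRCm38.p6), with 13 start sites between them, and the 250 bases before each start were used. The core was found at 10 of the 13 start sites (76.9%), belonging to 9 of the 10 genes, and at 38.6% of the 32851 mouse start sites of the same table. Base composition was not matched between them, and a match is a run of letters, not a bound site. Shown here are Hk2 and Ldha, which were lower in Old-GSTA4, and Slc16a1 and Slc16a8, which were higher, without any of the 4 passing the adjusted test. Sequences run 5′ to 3′ up to the base before the start, and capitals mark the core on either strand.
Hk2 (chr6:82774455-82774704, minus strand): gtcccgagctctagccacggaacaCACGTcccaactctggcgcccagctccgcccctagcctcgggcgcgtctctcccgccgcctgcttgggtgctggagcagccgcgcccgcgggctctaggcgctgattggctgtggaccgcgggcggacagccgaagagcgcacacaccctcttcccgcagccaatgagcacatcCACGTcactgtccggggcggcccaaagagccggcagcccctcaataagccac
Ldha (chr7:46845554-46845803, plus strand): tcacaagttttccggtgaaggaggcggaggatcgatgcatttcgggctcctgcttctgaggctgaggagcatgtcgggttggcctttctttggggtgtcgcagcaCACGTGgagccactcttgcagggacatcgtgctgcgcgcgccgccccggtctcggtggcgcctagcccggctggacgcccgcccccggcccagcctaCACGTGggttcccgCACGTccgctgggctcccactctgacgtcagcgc
Slc16a1 (chr3:104638414-104638663, plus strand): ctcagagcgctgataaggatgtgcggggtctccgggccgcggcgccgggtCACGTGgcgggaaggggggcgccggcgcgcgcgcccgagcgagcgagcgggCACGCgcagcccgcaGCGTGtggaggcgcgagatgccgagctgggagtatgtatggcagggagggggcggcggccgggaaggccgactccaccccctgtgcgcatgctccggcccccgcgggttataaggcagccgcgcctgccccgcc
Slc16a8 (chr15:79254749-79254998, minus strand): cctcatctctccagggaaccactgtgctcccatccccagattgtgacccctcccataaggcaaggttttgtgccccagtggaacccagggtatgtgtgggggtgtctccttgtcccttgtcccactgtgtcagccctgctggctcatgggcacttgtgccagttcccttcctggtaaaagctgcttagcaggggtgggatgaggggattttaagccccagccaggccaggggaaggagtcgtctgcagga
The Ldha window, before the first of its 2 RefSeq starts, held ACGTG 5 times counting both strands. It includes CACGTG in 2 places, each of which reads as ACGTG on both strands, and CACGTG occurs in 6.02% of all windows. Slc16a1 held CACGTG once and GCGTG in 2 places, Hk2 held ACGTG in 2 places, and Slc16a8 held neither core. The start-site end of the Slc16a8 window overlaps the gene as GENCODE M21 annotates it. The whole Ldha window lies within Ldha in that annotation, where the gene starts at base 46841475. In Slc2a1, whose window is not shown, ACGTG and GCGTG occurred once each.

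The libraries held 15329181 to 28998964 counts. Old-GFP replicate 3 stood apart, since its log2 CPM correlated with those of the other libraries at a mean of 0.838 against 0.910 to 0.926 for the other 6 (CPM are counts per 1000000 counts of the library, whose size was scaled by the trimmed mean of M-values, TMM). The human GSTA4 row had 1 to 3 counts in Old-GFP libraries and 45 to 5239 counts in Old-GSTA4 libraries, lowest in replicate 3. The row of the GFP transgene, d2EGFP, had 99 counts in the library labelled Old-GFP replicate 1, against 3970 and 2361 in replicates 2 and 3 and 163, 64, 7 and 26 in Old-GSTA4 replicates 1 to 4. The d2EGFP level of that library thus lay within the Old-GSTA4 range, against its label. Its human GSTA4 row had 3 counts, fewer than in any Old-GSTA4 library. That it received AAV-GFP is known here from the label alone. Libraries are named by their labels throughout, and fold changes without it are given beside some of the genes, not all that it moves. The 17 RPE markers summed to 25152 to 76174 CPM in Old-GFP and 66599 to 119375 CPM in Old-GSTA4, none at 0 in any library, so the labelled tissue was present throughout. All 20 rod photoreceptor markers were also detected in every library and summed to 17837 to 46448 CPM in Old-GFP and 9112 to 16561 CPM in Old-GSTA4, so the groups did not overlap and Old-GSTA4 was the lower. Rpe65, the retinoid isomerase of the RPE, had 1767 to 9210.1 CPM in Old-GFP and 5983 to 11831 CPM in Old-GSTA4. Old-GFP replicate 3 had both the highest rod sum and the lowest RPE sum. The 12 lens markers, of which Cryga, Crygd, Cryge and Lim2 were at 0 in at least 1 library, summed to 103958 CPM in Old-GSTA4 replicate 2 and to between 1935 and 18184 CPM elsewhere. Summed levels were 5295 to 8599 CPM in Old-GFP and 9011 to 13323 CPM in Old-GSTA4 for 8 Mueller glia markers and 823 to 1018 CPM in Old-GFP and 312 to 626 CPM in Old-GSTA4 for 10 markers of inner retinal neurons, neither overlapping between the groups, and 359 to 795 CPM in Old-GFP and 227 to 385 CPM in Old-GSTA4 for 10 cone markers, all 10 with negative log2 fold changes. Of the 8 Mueller glia markers, 4 had positive and 4 negative log2 fold changes, with a median of -0.15, although their sum was higher in Old-GSTA4. All 9 inner retinal markers expressed enough to be tested had negative ones. Log2 fold changes were positive for 14 of the 17 RPE markers and negative for 19 of the 20 rod markers. In edgeR's test, 6 RPE markers (35.3%) had an unadjusted p-value under 0.05, all higher in Old-GSTA4. So did 18 rod markers (90%), all lower. Of all genes, 5.27% were higher and 6.63% lower at that threshold. None of these markers passed after adjustment. The rod and RPE sums are set against the 10 genes further on, and the part of the other cell types in the results was not tested. In such bulk libraries fewer cells of a type and less RNA per cell cannot be told apart.

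The 10 genes pointed both ways. All 10 were expressed enough to be tested, and 5 were higher and 5 lower in Old-GSTA4: Slc2a1, Pfkl, Ldhb, Slc16a1 and Slc16a8 had positive log2 fold changes, and Hk1, Hk2, Pkm, Ldha and Slc16a3 negative ones. With edgeR's quasi-likelihood fit and Benjamini-Hochberg adjustment over the whole table, none passed 0.05, and neither did any other of the 15075 genes (0%). The adjusted p-values of the 10 genes lay between 0.374 and 0.643. Before adjustment, 2 of 10 had p-values under 0.05, Slc2a1 higher and Hk2 lower, against 11.9% of all genes (1794 genes, 5.27% higher and 6.63% lower). In 1 of 10, Slc2a1, the 2 groups of libraries did not overlap, against 12.0% of all genes (6.44% with Old-GSTA4 higher and 5.61% with it lower). Their median log2 fold change was -0.045, beside -0.071 over all genes. Both the counts and the median thus lay near those of the whole transcriptome. The median fell between Pkm (-0.42) and Pfkl (0.33), with none of the 10 genes between them. It therefore does not describe the size of the single differences. DESeq2 called 166 genes and limma-voom 0 across the table, none of them among the 10; over the 16 alternative settings the smallest adjusted p-value of any of the 10 was 0.0896 (Slc2a1 in DESeq2; 0.0896 to 0.865 over its alternatives). When library totals replaced TMM, the median of all genes was -0.37 and that of the 10 genes -0.38. Of the genes with an unadjusted p-value under 0.05, 44.3% were higher in Old-GSTA4 with TMM and 11.1% with library totals.

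**Figure D1:**
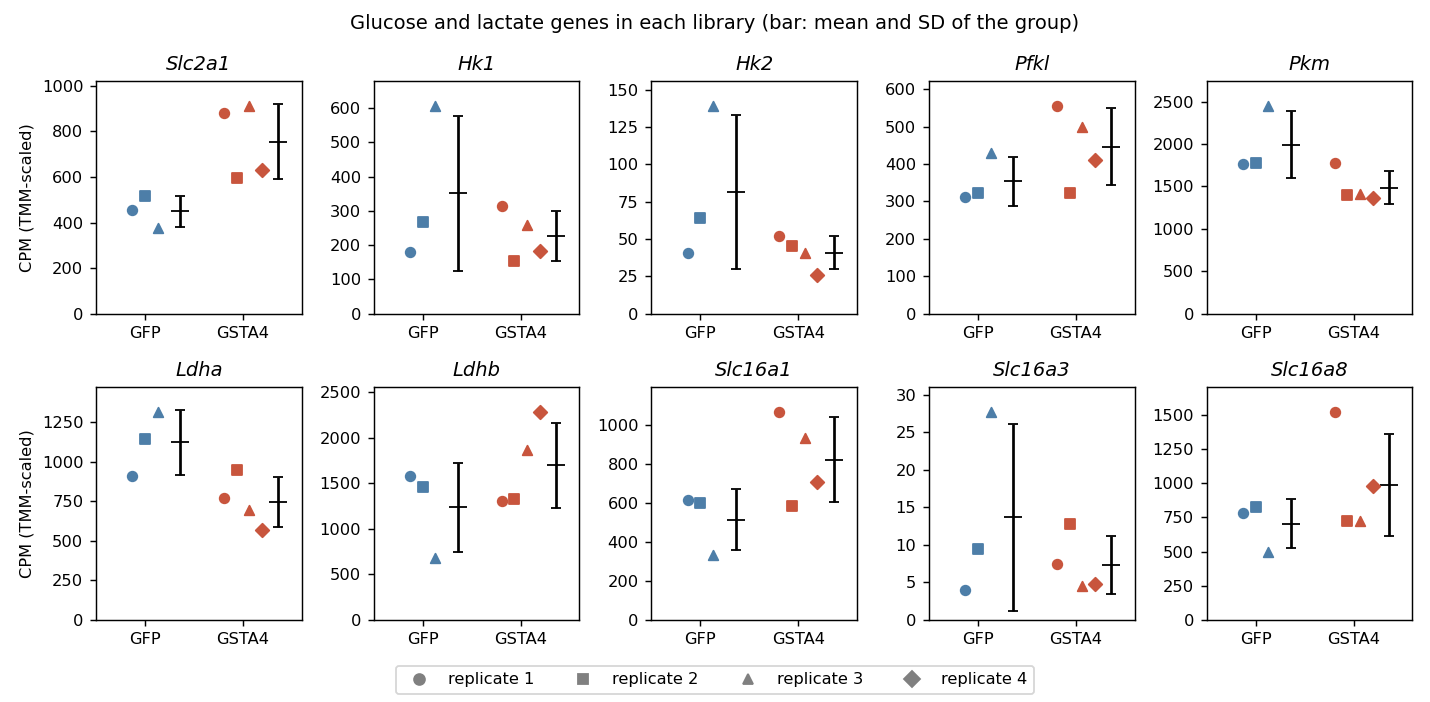
Levels of the 10 genes in each library, in TMM-scaled CPM, with 1 point per library, the shape giving the replicate number, and a bar for the mean and SD of the 3 Old-GFP and 4 Old-GSTA4 libraries. Slc2a1 is the gene whose groups do not overlap (515 CPM at most in Old-GFP, 597 CPM at least in Old-GSTA4), and Old-GFP replicate 3 is the highest of all 7 libraries for Hk1, Hk2, Pkm, Ldha and Slc16a3 and the lowest for Slc2a1, Ldhb, Slc16a1 and Slc16a8.

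The glucose transporter was the one of the 10 genes whose groups did not overlap. Slc2a1 (chromosome 4, 119108711 to 119137983, GRCm38, GENCODE M21), the main glucose transporter of the blood-retina barrier, stood at 454, 515 and 377 CPM in Old-GFP replicates 1 to 3. In Old-GSTA4 replicates 1 to 4 it stood at 883, 597, 912 and 631 CPM. Every Old-GSTA4 library was above every Old-GFP library, with replicates 1 and 3 the highest. The means were 449 ± 69.3 CPM (SD, n = 3) for the control vector and 756 ± 165 CPM (SD, n = 4) for GSTA4, a 1.68-fold difference (95% interval 1.10 to 2.57). This is a log2 fold change of 0.75 ± 0.27 (SE; 95% interval 0.14 to 1.36), with an adjusted p of 0.374 in edgeR's test. It was positive in all 16 alternatives, from 0.47 to 0.87: 0.64 without Old-GFP replicate 3, 0.76 without Old-GFP replicate 1 and 0.82 with the rod score as covariate. Its unadjusted p-value was under 0.05 in 11 of the 16 alternatives. It was not without Old-GSTA4 replicate 1 (0.69) or 3 (0.66) or with library totals (0.47), with the rod score, or with a block for the replicate numbers of the titles (0.82). Slc2a1 is also a marker of barrier endothelium; the summed level of 8 endothelial markers was 35.6 to 149.8 CPM in Old-GFP and 38.5 to 57.5 CPM in Old-GSTA4, and 1 of the 8 had a positive log2 fold change, with groups that did not overlap. The part of endothelium in the Slc2a1 result was not tested. No fit used the RPE markers as a covariate, so their part in it was not tested either.

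Other glucose transporters were taken from a list of 8, of which 7 were expressed enough to be tested and Slc5a2 was not. Of these, 2 (28.6%) had an unadjusted p-value under 0.05, both higher in Old-GSTA4, against 11.9% of all genes in either direction and 5.27% higher, and none passed after adjustment. The same 2 had groups that did not overlap, against 12.0% of all genes. Log2 fold changes were positive for 4 of the 7 and negative for 3. The negative ones were those of Slc2a3 (-1.12), Slc5a1 (-1.04) and Slc2a6 (-0.34), genes whose groups overlapped. Slc2a12 (GLUT12) was at 79.5, 74.0 and 33.2 CPM in Old-GFP replicates 1 to 3 and at 169.7, 123, 212 and 132 CPM in Old-GSTA4 replicates 1 to 4. Its groups did not overlap, and its log2 fold change of 1.35 ± 0.34 (SE; 95% interval 0.58 to 2.12) exceeded that of Slc2a1 in size, though the difference between the 2 genes was not tested. In edgeR's test its adjusted p was 0.363, and in DESeq2 it was 0.0231 (0.0231 to 0.865 over the alternatives). Slc2a8, an intracellular sugar transporter, was at the far lower levels of 12.3, 15.9 and 7.20 CPM and 23.1, 17.0, 26.9 and 24.2 CPM in the same order. Its groups also did not overlap, with a log2 fold change of 0.95 ± 0.32 (SE; 95% interval 0.23 to 1.67) and an adjusted p of 0.364 in edgeR's test.

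Hexokinases trap glucose as glucose 6-phosphate, Hk1 being the widespread isoform and Hk2 an inducible one that rods use heavily. Hk1 (chromosome 10, 62268855 to 62379908) was at 179, 268 and 607 CPM in Old-GFP replicates 1 to 3 and at 315, 155, 259 and 182 CPM in Old-GSTA4 replicates 1 to 4. The groups overlapped, and Old-GFP replicate 3 was the highest library. A log2 fold change of -0.63 ± 0.42 (SE; 95% interval -1.57 to 0.32) had an adjusted p of 0.563 in edgeR's test, and it was 0.021 without Old-GFP replicate 3 and -0.93 without replicate 1. Hk2 (chromosome 6, 82725025 to 82774454) was at 40.7, 64.3 and 139 CPM in Old-GFP and at 52.3, 45.2, 40.4 and 25.8 CPM in Old-GSTA4. Old-GFP replicate 1 lay among the Old-GSTA4 libraries and the other 2 Old-GFP libraries lay above them all. With means of 81.4 ± 51.4 CPM (SD, n = 3) for the control vector and 40.9 ± 11.2 CPM (SD, n = 4) for GSTA4, the log2 fold change of Hk2 was -0.99 ± 0.40 (SE; 95% interval -1.89 to -0.10), with an adjusted p of 0.388 in edgeR's test. Without Old-GFP replicate 3 it was -0.36, without replicate 1 it was -1.31, and with the rod score (mean log2 CPM of the 20 rod markers) in the fit it was 0.40, of opposite sign.

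The share of Hk2 among hexokinase counts does not depend on the scaling between libraries. It was 18.5, 19.3 and 18.7% in Old-GFP replicates 1 to 3, which differ by under 1 percentage point although Hk2 itself varied widely between them. In Old-GSTA4 replicates 1 to 4 it was 14.2, 22.5, 13.5 and 12.4%. Replicates 1, 3 and 4 lay below the Old-GFP libraries and replicate 2 above them, so the groups overlapped. The means were 18.8% ± 0.434 (SD, n = 3) for the control vector and 15.7% ± 4.64 (SD, n = 4) for GSTA4.

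Further down the pathway, Pfkl (chromosome 10, 77986947 to 78010083), the liver-type subunit of the enzyme that commits sugar to glycolysis, was at 311, 322 and 430.3 CPM in Old-GFP and at 555, 322, 498 and 409.9 CPM in Old-GSTA4. Its groups overlapped and its log2 fold change was 0.33 ± 0.27 (SE; 95% interval -0.27 to 0.94), with an adjusted p of 0.639 in edgeR's test. Pkm (chromosome 9, 59656368 to 59679375) encodes both muscle-type pyruvate kinase isoforms, which a count per gene does not separate. It was at 1761, 1773 and 2449 CPM in Old-GFP and at 1781, 1397, 1406 and 1363 CPM in Old-GSTA4. Old-GSTA4 replicate 1 reached the level of the lower Old-GFP libraries, and the other 3 lay below all Old-GFP libraries. For Pkm the log2 fold change was -0.42 ± 0.27 (SE; 95% interval -1.04 to 0.19), with an adjusted p of 0.545 in edgeR's test. Its interval leaves room for a level of 0.488 times that of Old-GFP as well as one of 1.14 times.

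**Figure D2:**
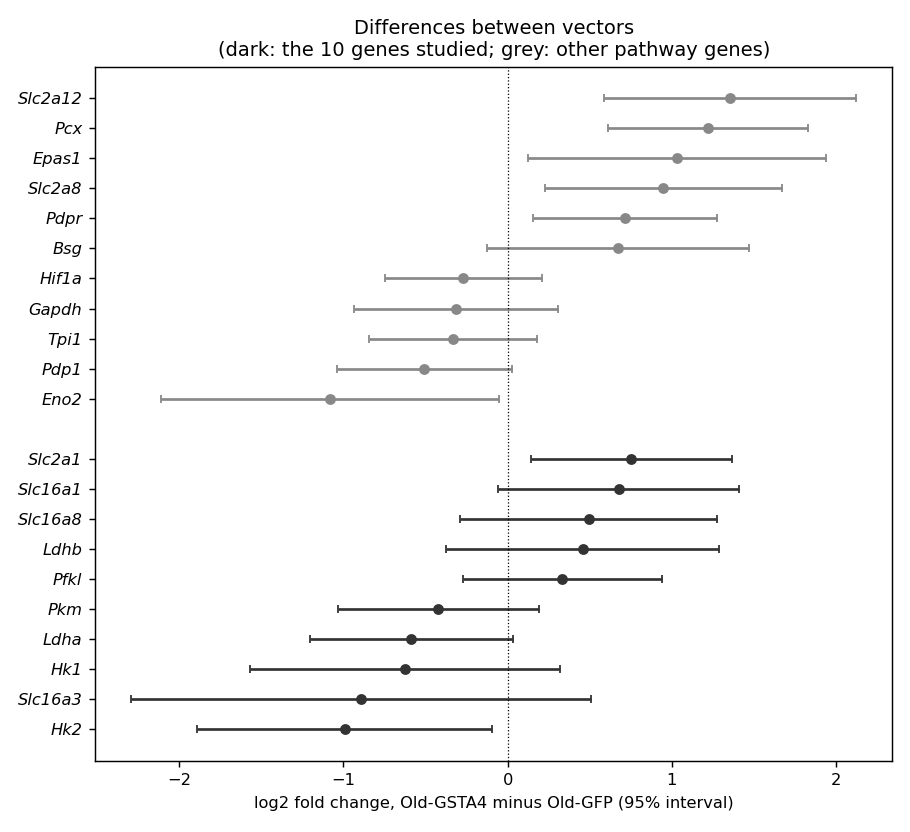
Difference between the groups as log2 fold change, positive where Old-GSTA4 is higher, for the 10 genes (dark) and 11 other genes of the pathway (grey), on the horizontal axis, with 95% intervals from edgeR's fit. Of the 10 genes, the intervals of Slc2a1 (0.14 to 1.36) and Hk2 (-1.89 to -0.10) leave out 0 before adjustment over all genes.

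The log2 fold changes of the lactate dehydrogenase subunits had opposite signs, and neither gene passed the test. Ldha (chromosome 7, 46841475 to 46855627) was at 908, 1141 and 1312 CPM in Old-GFP replicates 1 to 3. In Old-GSTA4 replicates 1 to 4 it was at 771, 946, 696 and 569.7 CPM. Only Old-GSTA4 replicate 2 reached into the Old-GFP range. The means of Ldha were 1120.3 ± 203 CPM (SD, n = 3) for the control vector and 746 ± 157 CPM (SD, n = 4) for GSTA4, and the log2 fold change was -0.59 ± 0.28 (SE; 95% interval -1.21 to 0.031), with an adjusted p of 0.434 in edgeR's test. It was negative in all 16 alternatives, from -0.92 with library totals to -0.16 with the rod score as covariate, and was -0.71 without Old-GFP replicate 1. Ldhb (chromosome 6, 142490249 to 142507957) was at 1575, 1454 and 678 CPM in Old-GFP and at 1308, 1329.7, 1860.3 and 2280.5 CPM in Old-GSTA4. Old-GFP replicate 3 was far below the other 6 libraries, and Old-GSTA4 replicates 3 and 4 were the highest. For Ldhb the log2 fold change was 0.46 ± 0.37 (SE; 95% interval -0.38 to 1.29), with an adjusted p of 0.643 in edgeR's test. It was 0.16 without Old-GFP replicate 3, 0.67 without Old-GFP replicate 1 and -0.31 with the rod score as covariate. Near-identical copies can take or give reads: at 95% identity over at least 200 bases the coding sequence matched 4 other genes for Ldha, 1 for Ldhb and 2 for Pkm in GENCODE M21, and none for the other 7 genes; none of these copies has a row of its own in the table.

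Ldhb accounted for 63.4, 56.0 and 34.1% of lactate dehydrogenase counts in Old-GFP replicates 1 to 3 and for 62.9, 58.4, 72.8 and 80.0% in Old-GSTA4 replicates 1 to 4. The means were 51.2% ± 15.3 (SD, n = 3) for the control vector and 68.5% ± 9.72 (SD, n = 4) for GSTA4, and the groups overlapped. Old-GFP replicate 3 was the library in which Ldha exceeded Ldhb in counts. Divided by the length of annotated exons, Ldhb made up 78.5, 72.9 and 52.1% and 78.2, 74.8, 84.9 and 89.4% in the same order, so that per length Ldhb was the larger of the pair in all 7 libraries. That length joins the exons of all annotated transcripts, 3310 bases for Ldha and 1570 for Ldhb. Their longest coding sequences have 1083 and 1002 bases, so the order of the pair in Old-GFP replicate 3 depends on the length used. The difference of means was 17.4 percentage points in counts, and 8.80 percentage points without Old-GFP replicate 3. No test was made on these shares.

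**Figure D3:**
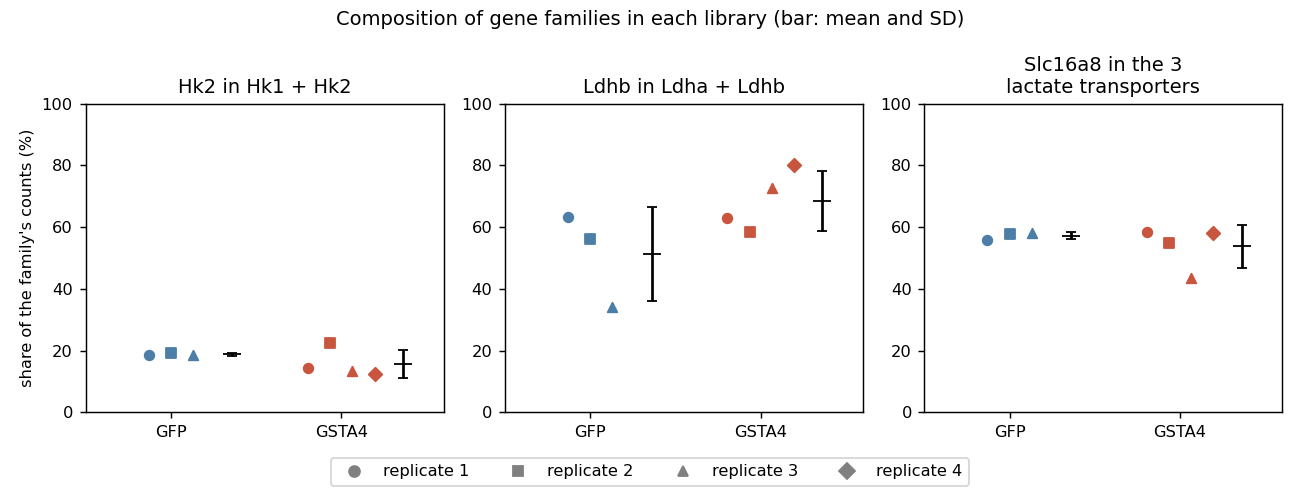
Share of a family's counts, in percent, taken by Hk2 among hexokinases (left), Ldhb among lactate dehydrogenase subunits (middle) and Slc16a8 among Slc16a1, Slc16a3 and Slc16a8 (right), with 1 point per library, the shape giving the replicate number, and a bar for the mean and SD of each group. Ldhb spans 34.1% to 80.0% over the 7 libraries, whereas Slc16a8 stays between 54.8% and 58.6% in all but Old-GSTA4 replicate 3, where it is 43.6%.

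Both lactate transporters typical of the RPE had higher means in Old-GSTA4, and neither passed the test. Slc16a1 (chromosome 3, 104638668 to 104658462) was at 615, 599 and 332 CPM in Old-GFP replicates 1 to 3 and at 1068, 586, 933 and 707 CPM in Old-GSTA4 replicates 1 to 4. The groups overlapped through Old-GSTA4 replicate 2, which was below Old-GFP replicates 1 and 2. The means of Slc16a1 were 515 ± 159 CPM (SD, n = 3) for the control vector and 823 ± 217 CPM (SD, n = 4) for GSTA4. Its log2 fold change was 0.68 ± 0.33 (SE; 95% interval -0.059 to 1.41), with an adjusted p of 0.446 in edgeR's test, and without Old-GFP replicate 3 it was 0.44. Slc16a8 (chromosome 15, 79251014 to 79254761) was at 783, 828 and 496 CPM in Old-GFP and at 1521, 726, 725 and 981 CPM in Old-GSTA4. Old-GSTA4 replicate 1 was far above the rest, and replicates 2 and 3 lay below Old-GFP replicates 1 and 2. The log2 fold change of Slc16a8 was 0.49 ± 0.35 (SE; 95% interval -0.29 to 1.27), with an adjusted p of 0.588 in edgeR's test and 0.30 without Old-GFP replicate 3.

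Slc16a3 (chromosome 11, 120948480 to 120960868) was scarce, with 84, 244 and 576 counts in Old-GFP replicates 1 to 3 and 140, 267, 76 and 129 counts in Old-GSTA4 replicates 1 to 4. These correspond to 3.91, 9.42 and 27.7 CPM and 7.37, 12.8, 4.47 and 4.76 CPM, all above the floor of 3 counts (at most 0.176 CPM). Old-GFP replicate 3 had the most. Its log2 fold change of -0.89 ± 0.62 (SE; 95% interval -2.29 to 0.51) had an adjusted p of 0.583 in edgeR's test and was 0.14 without that library and -1.32 without replicate 1. The basigin gene Bsg, the chaperone of these transporters, was abundant, at 4213, 3471 and 2407 CPM in Old-GFP and 5263, 3503, 6943 and 5749.8 CPM in Old-GSTA4. Its log2 fold change was 0.67 ± 0.36 (SE; 95% interval -0.12 to 1.47), with an adjusted p of 0.475 in edgeR's test. Among the counts of the 3 transporters, Slc16a8 took 55.8, 57.7 and 58.0% in Old-GFP and 58.6, 54.8, 43.6 and 58.0% in Old-GSTA4. Slc16a3 took 0.279, 0.656 and 3.23% in Old-GFP and 0.284, 0.967, 0.269 and 0.281% in Old-GSTA4. The division between Slc16a1 and Slc16a8 was thus similar in 6 of 7 libraries, with Old-GSTA4 replicate 3 lower in Slc16a8.

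Levels of different genes were compared as CPM per kilobase of annotated exon, averaged over the 7 libraries. The exons of all annotated transcripts of a gene were joined, and the order depends on that choice of length. Ldhb was the highest, at 954, above Slc16a8 in 7 of 7 libraries. Slc16a8 at 380.4, Pkm at 341 and Ldha at 274 followed, and their order was not fixed: Slc16a8 was above Pkm in 5 of 7 libraries and Pkm above Ldha in 6 of 7. Slc2a1 at 178 was below Ldha in only 4 of 7 libraries, and above Slc16a1, at 156, in 6 of 7. Pfkl at 61.0 was below Slc16a1 in 7 of 7 libraries and above Hk1, at 32.9, in 6 of 7. Hk1 exceeded Hk2, at 9.76, and Hk2 exceeded Slc16a3, at 1.89, in 7 of 7 libraries. In Old-GFP, Slc2a1 averaged 128 ± 19.8 (SD, n = 3) and Ldha 338 ± 61.2 CPM per kilobase. In Old-GSTA4 the pair came to 216 ± 46.9 and 225 ± 47.5 (SD, n = 4), a level at which they did not differ beyond their spread.

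The rest of the pathway was taken from a list of 65 genes, of which 60 were expressed enough to be tested; Slc5a2, Gapdhs, Pklr, Ldhc and Slc5a12 were not. None passed after adjustment. Before adjustment, p-values under 0.05 were found for 6 (10.0%), 5 higher and 1 lower in Old-GSTA4, near the 11.9% of all genes. The groups did not overlap for 7 of 60 (11.7%), against 12.0% of all genes. Their median log2 fold change was 0.025. Log2 fold changes were positive for 31 of the 60, and for 6720 of the 15075 genes tested in all. By group they were positive for 5 of 10 genes of glucose phosphorylation and upper glycolysis, 3 of 9 of lower glycolysis, 0 of 5 that set fructose 2,6-bisphosphate, the main activator of phosphofructokinase, 11 of 15 of pyruvate entry and oxidation, 4 of 7 further glucose transporters, 3 of 4 lactate transporters and chaperones, and 5 of 10 regulators of glycolytic genes.

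Pcx encodes pyruvate carboxylase, which turns pyruvate into oxaloacetate, and had the smallest p-value of the list. It was at 95.9, 99.7 and 70.9 CPM in Old-GFP replicates 1 to 3 and at 245, 149.8, 260.5 and 173 CPM in Old-GSTA4 replicates 1 to 4. All Old-GSTA4 libraries were above all Old-GFP libraries. For Pcx the log2 fold change was 1.22 ± 0.27 (SE; 95% interval 0.61 to 1.83), with an adjusted p of 0.363 in edgeR's test. DESeq2 gave it an adjusted p of 0.00800 (0.00800 to 0.865 over the alternatives), and its log2 fold change was 1.08 without Old-GFP replicate 3 and 1.22 with the rod score as covariate. Subunits of the phosphatase that activates pyruvate dehydrogenase had log2 fold changes of opposite sign, 0.71 for Pdpr and -0.51 for Pdp1, and neither passed. Pdpr, the regulatory subunit of that phosphatase, was at 12.5, 12.1 and 8.88 CPM in Old-GFP and 19.2, 19.5, 17.0 and 17.8 CPM in Old-GSTA4, with an adjusted p of 0.373 in edgeR's test. Pdp1, a catalytic subunit, was at 45.0, 29.6 and 26.3 CPM in Old-GFP and 23.7, 22.6, 23.0 and 25.1 CPM in Old-GSTA4. Its adjusted p in edgeR's test was 0.433. Neither gene's groups overlapped. Without Old-GFP replicate 1, the log2 fold change of Pdp1 was -0.24. Pdp2, the other catalytic subunit, had a log2 fold change of -0.81 (95% interval -1.74 to 0.11). Its groups overlapped, and its adjusted p in edgeR's test was 0.464.

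Among glycolytic enzymes outside the 10, Eno2, the neuronal enolase, was at 90.6, 82.2 and 228 CPM in Old-GFP and 112, 49.7, 56.2 and 34.6 CPM in Old-GSTA4. The groups overlapped, with Old-GFP replicate 3 the highest library. Its log2 fold change was -1.08 ± 0.46 (SE; 95% interval -2.11 to -0.054) with an adjusted p of 0.401 in edgeR's test, and -0.45 without Old-GFP replicate 3. Tpi1, triosephosphate isomerase, was at 666, 783 and 639 CPM and 559.7, 613, 503 and 531 CPM in the same order, groups that do not overlap, with a log2 fold change of -0.33 ± 0.23 (SE; 95% interval -0.85 to 0.18) and an adjusted p of 0.572. Gapdh, often used as a reference gene, had 1675 ± 286 CPM (SD, n = 3) for the control vector and 1346 ± 237 CPM (SD, n = 4) for GSTA4, with an adjusted p of 0.672; its many processed copies in the mouse genome make its count uncertain.

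Of the transcription factors that drive glycolytic genes, Hif1a and Epas1 (a hypoxia-inducible factor alpha subunit, as is the product of Hif1a) had opposite signs. Hif1a was at 425, 449.8 and 462 CPM in Old-GFP and 386, 404, 349 and 339.5 CPM in Old-GSTA4. The groups did not overlap, but the log2 fold change was small, -0.27 ± 0.21 (SE; 95% interval -0.75 to 0.21), with an adjusted p of 0.631 in edgeR's test. Epas1 was at 226, 236 and 245 CPM in Old-GFP and 658, 178, 599.6 and 491 CPM in Old-GSTA4. Old-GSTA4 replicates 1, 3 and 4 were above the Old-GFP libraries and replicate 2 was below them. The log2 fold change of Epas1 was 1.03 ± 0.40 (SE; 95% interval 0.12 to 1.94), with an adjusted p of 0.383 in edgeR's test. In Slc2a1, Slc16a1, Pcx, Slc2a12 and Epas1 alike, Old-GSTA4 replicate 2, the library with the high lens sum, was the lowest of its group. That library also had the most human GSTA4, at 251 CPM. Old-GSTA4 replicate 3, with the least at 2.64 CPM, was the highest of the group for Slc2a1, Pcx and Slc2a12. Replicate 1, at 222 CPM of human GSTA4, was the highest for Slc16a1 and Epas1. The part of lens tissue or of transgene level in these values was not tested.

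Rod photoreceptors ferment glucose heavily, and the summed rod markers differed between libraries. The levels of the 10 genes were set against the summed rod and RPE markers over the 7 libraries, in 20 relations. The rod sum was 17837, 29116 and 46448 CPM in Old-GFP replicates 1 to 3 and 16561, 14384, 15644 and 9112 CPM in Old-GSTA4 replicates 1 to 4. Hk2 gave Pearson's r of 0.961 (two-sided exact permutation p = 0.00278, 0.0278 after adjustment) and Spearman's rho of 0.821 (exact p = 0.0341, 0.114 after adjustment), and r was 0.797 without the 2 libraries farthest from the median rod sum. Pkm gave Pearson's r of 0.896 (two-sided exact permutation p = 0.00139, 0.0278 after adjustment) and Spearman's rho of 0.893 (exact p = 0.0123, 0.0952 after adjustment), with r = 0.617 without 2 libraries. Ldha gave Pearson's r of 0.915 (two-sided exact permutation p = 0.00476, 0.0317 after adjustment) and Spearman's rho of 0.786 (exact p = 0.0480, 0.137 after adjustment), with r = 0.717 without 2 libraries. Ldhb ran the other way, with Pearson's r of -0.858 (two-sided exact permutation p = 0.0190, 0.0381 after adjustment) and Spearman's rho of -0.607 (exact p = 0.167, 0.278 after adjustment); without 2 libraries its r was -0.0447, so that relation rests on those libraries. For Slc2a1 the relation with rods did not pass, with Pearson's r of -0.613 (two-sided exact permutation p = 0.139, 0.173 after adjustment) and Spearman's rho of -0.679 (exact p = 0.110, 0.219 after adjustment), with r = -0.463 without 2 libraries. For the other 5 genes Pearson's r with the rod sum was 0.804 for Hk1, 0.728 for Slc16a3, -0.674 for Slc16a1, -0.558 for Slc16a8 and -0.0792 for Pfkl, with exact permutation p after adjustment of 0.0651, 0.108, 0.126, 0.203 and 0.873. No rank correlation passed after adjustment over the 20 relations. The permutations ran over all 7 libraries without regard to the vector, for the rod and the RPE sum alike. Their p-values thus take in any difference between the groups, and the rod sums of the groups did not overlap. Groups of 3 and 4 libraries are too small to recompute these relations within a group.

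**Figure D4:**
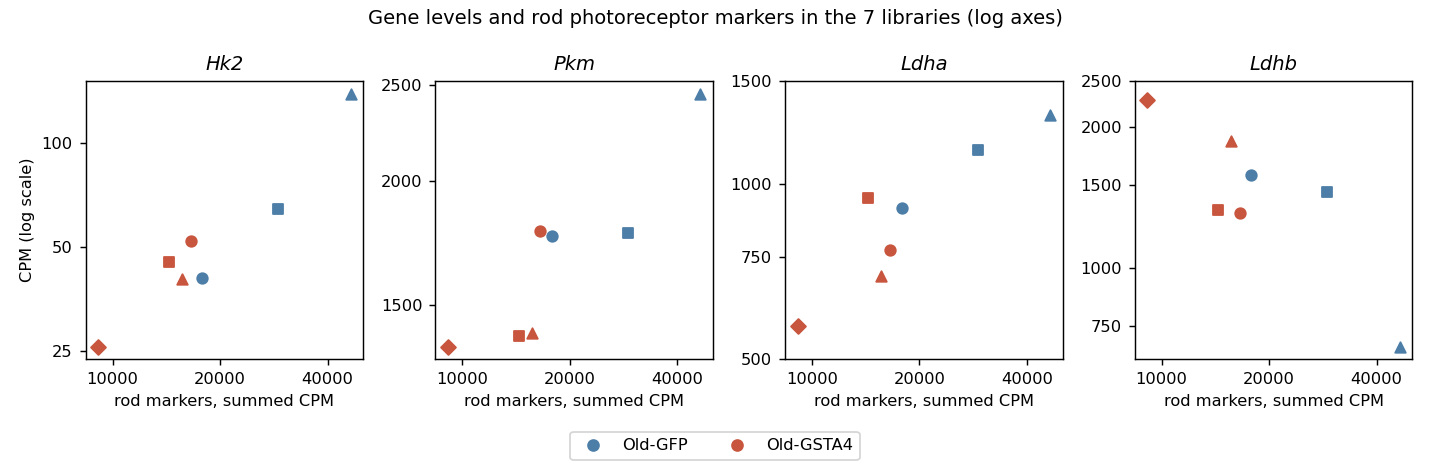
CPM of Hk2, Pkm, Ldha and Ldhb (vertical, log scale) against the summed CPM of 20 rod markers (horizontal, log scale) in the 7 libraries, blue for Old-GFP and red for Old-GSTA4, the shape giving the replicate number as in the plot of levels by library. The library with the highest rod sum, Old-GFP replicate 3 at 46448 CPM, has the most Hk2, Pkm and Ldha and the least Ldhb, and Old-GSTA4 replicate 4, with the lowest rod sum at 9112 CPM, has the least Hk2, Pkm and Ldha and the most Ldhb.

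Against the summed RPE markers, 76174, 60444 and 25152 CPM in Old-GFP and 87598, 66599, 119375 and 97718 CPM in Old-GSTA4, Slc16a1 gave Pearson's r of 0.904 (two-sided exact permutation p = 0.00972, 0.0327 after adjustment) and Spearman's rho of 0.857 (exact p = 0.0238, 0.0952 after adjustment), with r = 0.621 without 2 libraries. Slc2a1 gave Pearson's r of 0.809 (two-sided exact permutation p = 0.0129, 0.0327 after adjustment) and Spearman's rho of 0.857 (exact p = 0.0238, 0.0952 after adjustment), with r = 0.521 without 2 libraries. Ldha gave Pearson's r of -0.861 (two-sided exact permutation p = 0.00635, 0.0317 after adjustment) and Spearman's rho of -0.964 (exact p = 0.00278, 0.0556 after adjustment), with r = -0.959 without 2 libraries. Slc16a8 gave Pearson's r of 0.628 (two-sided exact permutation p = 0.153, 0.180 after adjustment) and Spearman's rho of 0.321 (exact p = 0.498, 0.553 after adjustment), with r = 0.615 without 2 libraries. The remaining genes had exact permutation results with the RPE sum as follows. Pearson's r was 0.913 for Ldhb (0.0327 after adjustment; r = 0.608 without 2 libraries), -0.896 for Hk2 (0.0344 after adjustment; r = -0.750 without 2 libraries) and -0.893 for Slc16a3 (0.0327 after adjustment; r = -0.630 without 2 libraries). It was -0.846 for Pkm (0.0455 after adjustment; r = -0.286 without 2 libraries), -0.684 for Hk1 (0.142 after adjustment; r = 0.0194 without 2 libraries) and 0.208 for Pfkl (0.747 after adjustment; r = 0.688 without 2 libraries). Their Spearman's rho were 0.714 for Ldhb, -0.857 for Hk2, -0.750 for Slc16a3, -0.571 for Pkm, -0.286 for Hk1 and 0.393 for Pfkl, with adjusted exact permutation p of at least 0.0952. The relation of Pkm rests on the 2 libraries left out. Rod and RPE sums were not separated from each other in these relations. With the rod score as covariate in edgeR's fit, 7 of the 10 genes had positive log2 fold changes and 3 negative ones, none with an unadjusted p-value under 0.05. Slc2a1 then stood at 0.82, Slc16a1 at 0.48, Pfkl at 0.71, Slc16a8 at 0.28, Ldha at -0.16 and Pkm at -0.083. The rod score and the vector were not independent in these 7 libraries, so their parts cannot be told apart.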

How the data were processed

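The 7 RPE libraries hold full-length cDNA of polyadenylated RNA, made with a low-input kit and cut by transposase per the labels' protocols. Molecular identifiers are not described there, and a detection floor therefore covers only counting error. The authors deposited raw read counts per gene symbol, 1 column per library. STAR 2.7.1a and featureCounts 1.6.2, with mouse (GRCm38, mm10) and human (GRCh38, hg38) builds, are named per the submitters' processing notes; the annotation release, strand setting and treatment of multi-mapping reads are not given in the sources used here. Columns were matched by library name; replicates carry the numbers of the sample titles. Where a symbol had several rows (24 symbols), the row with most counts kept it. No 2 libraries agreed within sampling noise (chi-square per gene at least 57.5).

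The whole table was tested by quasi-likelihood in edgeR 4.0.16 (R 4.3.3), with TMM scaling, the default expression filter, robust dispersions and Benjamini-Hochberg adjustment at 0.05; standard errors are the fold change over the square root of F. Log2 CPM used a prior count of 2. Alternatives were DESeq2 1.42.0, limma-voom (limma 3.58.1) with quality weights, 2 other scalings, 2 other filters, 2 replicate blocks, a rod score covariate and each library left out. On simulated counts with 200 changed genes, edgeR called 66 of 100 genes changed by a log2 fold change of 2 and 5 of 100 changed by one of 1, of 14716 tested. In the same run it also called 11 of the 14516 unchanged genes. Exon lengths and positions are from GENCODE M21 (GRCm38). Named are the 10 genes and the 3 genes most alike in pattern to those described. Of the pathway list, those with an unadjusted p-value under 0.05 or groups that do not overlap are named, plus Bsg, Gapdh and Hif1a. Slc2a3, Slc5a1, Slc2a6 and Pdp2 were named after their values were seen. The members and lists were chosen with earlier results of these data known.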

Additional observations from a re-analysis of the deposited data

Results flagged for a closer look

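Pkm in Old-GSTA4 replicate 1, at 1781 CPM, was isolated from the other 3 libraries of its group at 1363 to 1406 CPM, its gap to the next library being 0.897 of the range of the 4. The share of Slc16a3 among the counts of the 3 lactate transporters was isolated in Old-GSTA4 replicate 2, at 0.967% against 0.269% to 0.284%, with a gap of 0.978 of the range; this is the library with the high lens marker sum, whose part in it was not tested. These are 2 of 25 values examined in the 4 Old-GSTA4 libraries, and chance isolates a library in about 5% of them.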

How the results depend on the processing

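Over all genes, 0 passed the adjusted threshold in the edgeR fit, with both other scalings, both other filters and limma-voom; 166 passed with DESeq2, 1 with the rod score (Cyp2f2, named after its value was seen), and 0 to 1 when a library was left out (hGSTA4, without Old-GSTA4 replicate 3). Pcx (1.24) and Slc2a12 (1.37) passed in DESeq2. At an unadjusted p-value under 0.05, counts of the 10 genes higher and lower were 1 and 1; they were 2 and 2 with DESeq2, 2 and 2 with limma-voom, 0 and 3 with library totals, 0 and 0 with the rod score, and 0 to 2 and 0 to 4 with a library left out. Hk1, Hk2, Ldha and Slc16a3 were those lower without Old-GFP replicate 1; Hk2 missed without Old-GFP replicate 3 or Old-GSTA4 replicates 2, 3 or 4, and Slc2a1 without Old-GSTA4 replicates 1 or 3. For the other pathway genes, counts higher and lower were 5 and 1. They were 8 and 4 with limma-voom, 3 and 8 with library totals, 2 and 3 with the rod score, 4 to 7 and 0 to 3 with a library left out, and 2 lower with DESeq2 and with each other filter.

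Signs turned with the rod score for Hk1 (0.68), Hk2 (0.40), Ldhb (-0.31), Slc16a3 (1.21), Eno2 (0.10) and Gapdh (0.061), and without Old-GFP replicate 3 for Hk1 (-0.93 to 0.021 with a library left out) and Slc16a3 (-1.32 to 0.14); the cause was not tested. Fold changes of Slc2a1, Pfkl, Pkm, Ldha, Slc16a1 and Slc16a8 kept their sign in all 16 alternatives. Differences of the family shares with a library left out were -5.45 to -2.07 percentage points for Hk2, 8.80 to 23.5 for Ldhb and -5.02 to -0.0328 for Slc16a8.

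Equal replicate numbers did not pair the libraries: same-numbered deviations correlated at -0.0889 to 0.00904 by titles and -0.128 to 0.0146 by library names, and 0 and 2 of 6 libraries correlated best with their own number. With a replicate block by titles 1 gene passed over all genes (hGSTA4), 0 and 0 of the 10 had an unadjusted p-value under 0.05, and 2 and 3 of the other pathway genes. With the block by library names these were 1 (hGSTA4), 1 and 0, and 4 and 2. Of all genes, 5.63% had an unadjusted p-value under 0.05 with the block by titles and 7.62% with that by library names. Slc16a3 had the fewest counts of the 10 genes, 76 in its lowest library, so that depth limits it most; arms of 3 and 4 libraries limit all 10.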

Other observations

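Genes whose log2 CPM was most like that of a member over the 7 libraries were looked up among the 11109 other genes averaging 2 or more in log2 CPM. With 7 libraries and so many genes, values near 1 are found for every member, and they are given as a description with no test. For Slc2a1 these were Ezr (r = 0.992), Arfgef2 (r = 0.991) and Lgals3bp (r = 0.989); Ezr encodes ezrin, which links the membrane of the apical microvilli to actin. For Hk2 they were Elfn1 (r = 0.998), Sgip1 (r = 0.991) and Mpp4 (r = 0.989). For Ldhb they were Trappc3 (r = 0.993), Tmem205 (r = 0.992) and Clybl (r = 0.992), and for Slc16a1 C1qtnf12 (r = 0.991), Ptges (r = 0.991) and Eef2k (r = 0.988). For Hk1 they were Pitpnm1 (r = 0.991), Rrp7a (r = 0.991) and Gpi1 (r = 0.991), the last being the glycolytic enzyme that follows hexokinase.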
